A study of Mus musculus with 84 samples.

Results

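The genes described here are 31 markers of the other main cell types of brain tissue, read out in RNA of sorted mouse microglia. They comprise 8 astrocyte markers (Gja1, Gjb6, Gfap, Aqp4, Slc1a2, Slc1a3, Aldh1l1, Ndrg2), 13 neuron markers (Meg3, Snap25, Syt1, Rbfox3, Stmn2, Nefl, Gad1, Slc17a7, Olfm1, Unc80, Camk2a, Nrgn, Snhg11) and 10 markers of the oligodendrocyte lineage (Mbp, Mog, Mag, Mobp, Cnp, Cldn11, Sox10, Olig1, Olig2, Pdgfra). They were taken by symbol from the 49671 gene rows of the count files, and all 31 were found there.

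The study sequenced 84 libraries of FACS-sorted microglia, the resident macrophages of the brain, from mice after severe traumatic brain injury (TBI), to ask how removal of circulating monocytes changes microglia. Clodronate liposomes, which kill the phagocytes that take them up, were given after injury (24 libraries). The other groups were injury with vehicle liposomes, which the labels call PBS liposomes (21 libraries), injury with no other treatment (injury only, 20 libraries) and uninjured mice (19 libraries, called sham in the titles and the design text but naive in the library names). Cells were taken at days 1, 7, 14, 30 and 60. All groups except the uninjured carried the injury, so the comparisons of liposomes were made between injured groups. The sources used here give no strain, sex, age, liposome dose or sorting gate. Whether libraries of a group come from different animals is not said in the labels, so the p-values cover the spread among the libraries sequenced, which may be technical.

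Astrocytes support neurons by clearing glutamate and potassium and are coupled to each other by gap junctions; after injury they divide, enlarge and form a scar. Neurons carry synaptic and cytoskeletal proteins that define them, and oligodendrocytes wrap axons in myelin and arise from precursors that bear the receptor Pdgfra. Microglia engulf apoptotic cells, synapses and myelin debris, and sorted microglia can also carry RNA of neighbouring cells that adheres to them or is free in the suspension. In bulk RNA, fewer cells of a type and less RNA per cell cannot be told apart, and neither can RNA made by the microglia, RNA taken up by them and RNA of other cells sorted with them.

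Libraries held 1109856 to 18654785 counts in genes, and the libraries of day 60 held 1109856 to 12306417. A pair of libraries stood apart. In uninjured replicate 3 of day 14, the 10 microglia genes checked, among them Tmem119 and P2ry12, summed to 4464 CPM (a gene's counts scaled to 1e+06 counts in genes), against 22418 to 49932 in the other 83 libraries. In vehicle replicate 4 of day 7, 22.4% of counted reads lay in no annotated feature, against a median of 5.07% over all libraries, and it held only 1134078 counts in genes. Library names carry a year, and most share one year, called the main year here. The day 1 clodronate and vehicle groups held libraries of the main year and of a later year, the day 14 injury-only and uninjured libraries were of an earlier year, and all of day 60 were of the latest. Comparisons were therefore made within a day, with the year as a term at day 1.

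In uninjured microglia the 3 classes of markers were unequal, and each class was dominated by a few genes. Levels per kilobase of exon (CPM per kb) were compared over the 13 uninjured libraries of days 1, 7 and 30, all of the main year. Cnp, a phosphodiesterase of non-compact myelin, stood highest at a median of 32.0 CPM per kb (26.7 to 35.7). Slc1a3, the glutamate transporter GLAST, followed at 19.3 CPM per kb (17.3 to 21.8) and Mag, an adhesion protein of the innermost myelin layer, at 9.79 CPM per kb (7.16 to 11.2). The ranges of these 3 genes did not overlap with each other. Mbp, the myelin basic protein, came next at 5.69 CPM per kb (4.22 to 9.89); its range overlapped with that of Mag, and its locus also encodes golli transcripts of haematopoietic cells.

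Below these lay genes whose neighbours in the order had overlapping ranges. Ndrg2, a cytoplasmic protein abundant in astrocytes, had a median of 3.36 CPM per kb (2.14 to 6.12). The neuronal noncoding RNA Meg3 had 3.14 CPM per kb (1.25 to 5.88), the postsynaptic calmodulin-binding protein Nrgn had 2.42 CPM per kb (1.11 to 4.47) and the small nucleolar RNA host gene Snhg11 had 2.15 CPM per kb (0.764 to 4.46). Markers used to tell astrocytes and the oligodendrocyte lineage from microglia were among the lowest. The gap junction protein Gja1 (connexin 43) had a median of 0.243 CPM per kb (0 to 0.538), the water channel Aqp4 0.0901, and the transcription factors Olig2 and Sox10 0.0809 and 0.0496 CPM per kb. Pdgfra was lowest at 0.0168 CPM per kb.

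**Figure D1:**
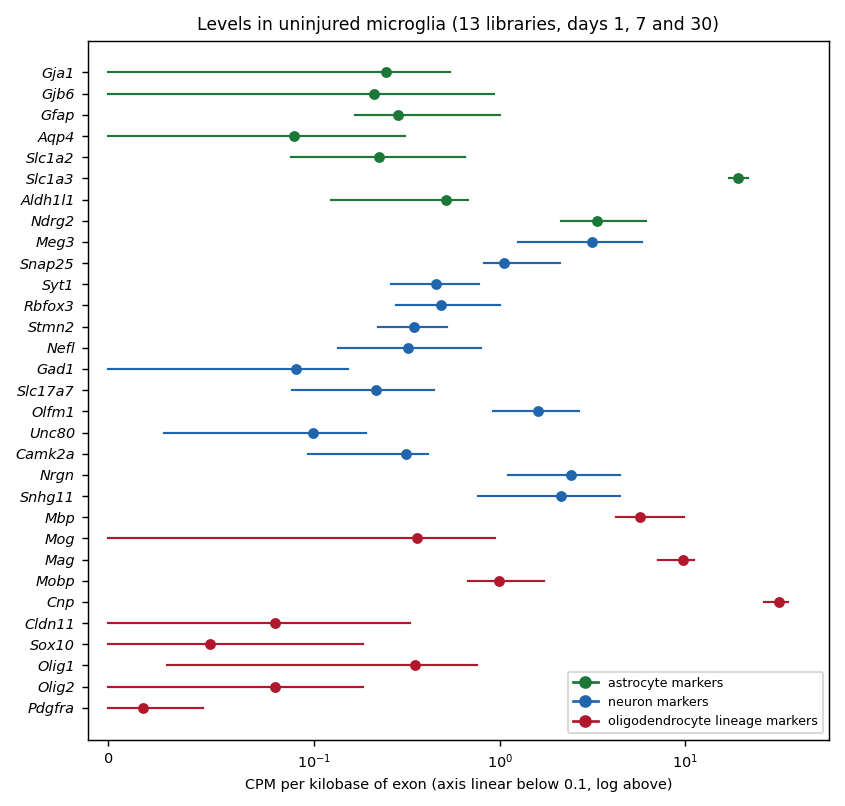
Level of each of the 31 genes in the 13 uninjured libraries of days 1, 7 and 30, in CPM per kb of exon on an axis that is linear near 0 and logarithmic above; points are medians and lines run from the lowest to the highest library. Cnp at 32.0 and Slc1a3 at 19.3 CPM per kb stand above all neuron markers, of which Meg3 is highest at 3.14.

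The classes thus rested on few genes. Slc1a3 alone made up a median of 68.3% of the summed CPM per kb of the 8 astrocyte markers over all 84 libraries, and Ndrg2 20.1%. Cnp made up 61.7% of the oligodendrocyte sum, Mag 17.6% and Mbp 14.4%. The neuron sum was spread more widely, with Meg3 at 18.7%, Nrgn at 18.2%, Olfm1 (a secreted glycoprotein of neurons) at 15.4%, Snhg11 at 12.5% and Snap25 at 11.2%. At the other end, Olig2 had no count in 43 of the 84 libraries, Sox10 in 26, Cldn11 (the tight junction protein of myelin) in 25 and Pdgfra in 25. Sox10 and Olig2 were too low to be tested in any comparison, which left 29 members tested at least once.

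Cnp, Mag and Slc1a3 varied least between groups. The highest median of any of the 22 groups was 1.76 times the lowest for Mag, 1.94 times for Cnp and 3.20 times for Slc1a3. For Meg3 the same ratio was 19.1 (6.61 CPM in the day 1 clodronate libraries of the main year, 126 CPM in injury only at day 30), for Snhg11 16.2, for Mbp 13.2, for Mobp 26.5 and for Gja1 35.7. In uninjured replicate 3 of day 14, the library low in microglia genes, Slc1a3 was 1.70 CPM against 143 and 133 CPM in the other uninjured libraries of that day, and Mag was 7.02 CPM against 45.5 and 68.8 CPM. Cnp was lower by less in that library, at 90.0 CPM against 126 and 158 CPM. Mbp moved the other way there, at 337 CPM against 56.3 and 64.1 CPM.

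A further 6 neuron markers, Syt1, Rbfox3, Stmn2, Slc17a7, Gad1 and Nefl, had their highest group medians at day 60. Syt1, the calcium sensor of transmitter release, had group medians from 0.669 CPM (clodronate at day 1, main year) to 7.16 CPM (injury only at day 60). Rbfox3, the neuronal nuclear antigen NeuN, had group medians from 0.752 CPM (vehicle at day 1, main year) to 6.45 CPM (injury only at day 60). Their lowest groups were thus liposome groups of day 1, as they were for Stmn2 (stathmin-2, a regulator of axonal microtubules), with 0.595 CPM in clodronate of the main year and 3.96 CPM in vehicle at day 60, and for Slc17a7 (the vesicular glutamate transporter of excitatory neurons), with 0.199 CPM in vehicle of the main year and 2.86 CPM in injury only at day 60. Gad1, which makes GABA in inhibitory neurons, had a highest group median of 2.96 CPM and the light neurofilament Nefl, whose gene overlaps Nefm, one of 5.21 CPM, both at day 60.

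Group medians of astrocyte and oligodendrocyte genes of low level also differed, over ranges that were not alike. Slc1a2, the main glutamate transporter of astrocytes, had group medians from 1.01 CPM (clodronate at day 14) to 14.0 CPM (uninjured at day 60). Aldh1l1 reached 16.0 CPM and Aqp4 3.20 CPM in injury only at day 60. Both had a median of 0 CPM in the uninjured libraries of day 14, which include the library low in microglia genes. Olig1, a transcription factor of the oligodendrocyte lineage, had group medians of 0.255 CPM (clodronate at day 1, main year) to 8.55 CPM (uninjured at day 60). Mog, a myelin surface protein, did not exceed a group median of 1.74 CPM. Levels at day 60 come from libraries of another year than those of the other days, so day and year cannot be told apart there.

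**Figure D2:**
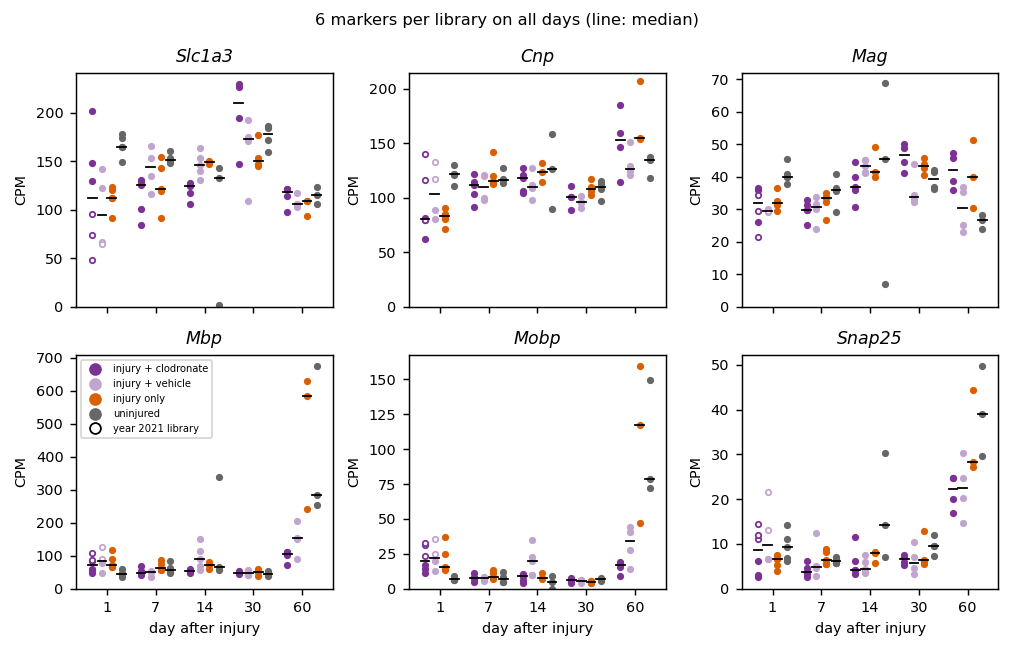
Level in CPM of Slc1a3, Cnp, Mag, Mbp, Mobp and Snap25 in every library, by day and treatment; each point is a library and each line a group median. Mag runs from 7.02 CPM, in uninjured replicate 3 of day 14, to 68.8 CPM and Cnp from 62.3 to 207 CPM. The highest libraries of Mbp (676 CPM, uninjured) and Mobp (159 CPM, injury only) are of day 60. At day 60 Mbp is 240 to 628 CPM in injury only and 254 to 676 CPM in uninjured. It is 88.1 to 204 CPM in vehicle and 70.7 to 112 CPM in clodronate. Mobp is 47.3 to 159, 71.8 to 149, 13.7 to 44.3 and 8.73 to 19.3 CPM in these groups.

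In injury only against uninjured, members were called at days 1 and 7. The counts of called members, with the share of all tested genes called beside them, are given first, and the genes after. A gene was called at an adjusted p under 0.05 in edgeR's quasi-likelihood test, adjusted over all genes tested. At day 1, 3 of 26 tested members rose and 4 fell in injury only against uninjured, where 19.1% of all 13593 tested genes rose and 17% fell, so the members were called no more often than genes at large. At day 7, 5 of 29 tested members rose and 0 fell, where 6.14% of 14278 genes rose and 1.54% fell. At days 14, 30 and 60, 0 of 27, 0 of 25 and 0 of 28 tested members were called, where the shares of all genes called were 0% at day 14 and day 30 and 0.0416% (higher) at day 60. For those 3 days, unadjusted p was under 0.05 for 7, 2 and 0 members, and DESeq2's Wald test called 2, 0 and 0. Among all tested genes, 1963 of 14354, 639 of 14082 and 418 of 12033 had such a p. DESeq2 called 101, 3 and 18 genes in all.

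**Figure D3:**
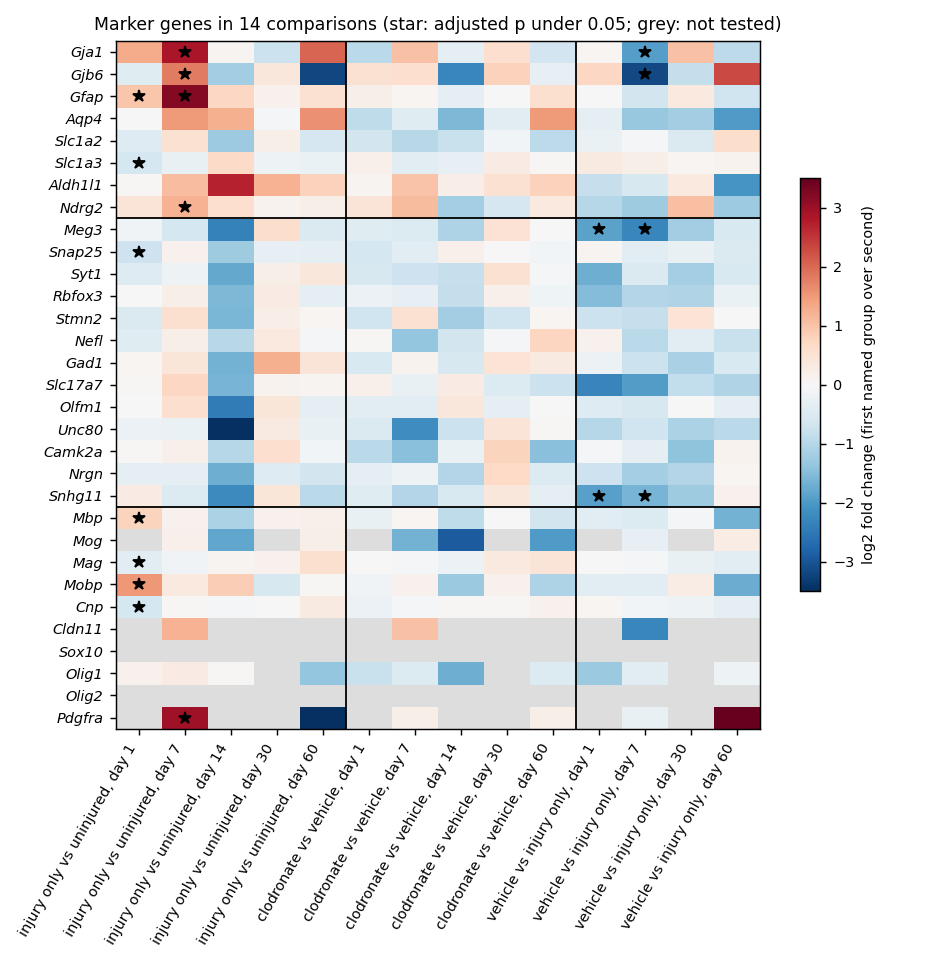
Log2 fold change of the 31 genes (down the page) in the 14 within-day comparisons (across), with a star where the adjusted p was under 0.05 and grey where the gene was too low to be tested. The stars for injury only against uninjured lie on oligodendrocyte genes, Slc1a3, Snap25 and Gfap at day 1 and mainly on astrocyte genes at day 7; none lies on a comparison of clodronate with vehicle.

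At day 7 after injury 4 of the astrocyte markers were higher, and the most abundant, Slc1a3, was not called. Of 8 tested, 4 rose, 0 fell and 7 had a fold change above 0, with a median log2 difference of 1.36, where the median of all tested genes was -0.0028. The 4 were the connexins Gja1 and Gjb6 (connexin 30), the intermediate filament Gfap, and Ndrg2. Of the 13 neuron markers 0 were called, with log2 differences from -0.61 (Meg3) to 0.73 (Slc17a7) and a median of 0.19, and of 8 oligodendrocyte markers tested only Pdgfra rose, with a median of 0.24 for the 8.

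Gja1 and Gfap carried the day 7 difference most clearly, and their promoters are shown because both genes rose together. Each run gives the 250 bases before and 50 bases after the RefSeq start (GRCm38.p6), 5′ to 3′ on the gene's strand. Capitals mark the one match found in each to the motifs searched on both strands. In Gja1 (chr10:56377050-56377349, plus strand) it is an AP-1 site (TGANTCA), which AP-1 proteins such as Fos and Jun bind. In Gfap (chr11:102897151-102897450, minus strand) it is a STAT site (TTCNNNGAA); this RefSeq start lies 3712 bases within the GENCODE gene.
Gja1: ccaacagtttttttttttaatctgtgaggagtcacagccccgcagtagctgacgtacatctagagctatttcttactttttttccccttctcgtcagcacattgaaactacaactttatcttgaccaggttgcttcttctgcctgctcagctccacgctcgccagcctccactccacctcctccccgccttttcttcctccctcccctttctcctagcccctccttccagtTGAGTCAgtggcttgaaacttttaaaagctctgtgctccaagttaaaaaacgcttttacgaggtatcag
Gfap: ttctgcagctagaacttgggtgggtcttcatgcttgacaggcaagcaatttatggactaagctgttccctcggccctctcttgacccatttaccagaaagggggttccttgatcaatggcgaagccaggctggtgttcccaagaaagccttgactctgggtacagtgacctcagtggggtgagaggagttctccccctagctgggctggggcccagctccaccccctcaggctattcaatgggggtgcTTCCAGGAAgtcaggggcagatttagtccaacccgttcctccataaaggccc
An AP-1 site was found in 7.81% of all 32851 promoters of the same length and a STAT site in 8.3%. Among the 30 windows of the 23 member genes that had one, 1 held the AP-1 site and 5 the STAT site. A match is a run of letters and does not show binding.

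Gja1 (chr10:56377330-56402513, plus strand), the main connexin of astrocytes, had 40.5, 46.1, 29.2, 23.1 and 22.8 CPM in the 5 injury-only libraries of day 7, against 3.29, 3.96, 5.15 and 5.52 CPM in the 4 uninjured ones. Every injury-only library lay above every uninjured one. The log2 fold change was 2.86 ± 0.38 (SE; adjusted p = 7.9e-05, edgeR). Gfap (chr11:102887336-102900912, minus strand), the filament protein whose increase marks reactive astrocytes, had 15.9, 9.33, 7.2, 7.09 and 21.6 CPM in injury only, against 1.04, 1.01, 2.04 and 1.19 CPM in uninjured libraries. These groups did not overlap either, and the log2 fold change was 3.21 ± 0.44 (SE; adjusted p = 9.8e-05, edgeR).

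Gjb6 (chr14:57123303-57133611, minus strand), the second astrocyte connexin, had 4.48, 5.64, 10.8, 2.27 and 4.88 CPM in injury only, against 0.562, 1.71, 2.50 and 1.49 CPM in uninjured libraries. In Gjb6 the lowest injury-only library lay below the highest uninjured one, and the log2 fold change was 1.82 ± 0.46 (SE; adjusted p = 0.0182, edgeR). Ndrg2 (chr14:51905271-51914158, minus strand) had 41.7, 38.2, 44.0, 22.4 and 18 CPM in injury only, against 16.3, 9.09, 13.5 and 17.7 CPM in uninjured libraries. The groups lay side by side without overlapping, at a log2 fold change of 1.22 ± 0.35 (SE; adjusted p = 0.0365, edgeR). The Ndrg2 call was lost in 7 of the 9 fits that left out 1 library (any uninjured one, or injury-only replicate 1, 2 or 3), and its adjusted p ran from 0.0209 to 0.135 over the 9. That of Gjb6 was lost in 3 of 9, without injury-only replicate 3 (adjusted p = 0.0545), uninjured replicate 1 (0.0633) or uninjured replicate 2 (0.0505).

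Pdgfra (chr5:75152292-75198215, plus strand), the PDGF receptor of oligodendrocyte precursors that is also found on fibroblasts, had 1.21, 0.903, 3.01, 1.17 and 1.59 CPM in injury only. Uninjured libraries had 0.161, 0, 0.227 and 0.373 CPM, which are 2, 0, 3 and 5 counts. The groups did not overlap, and the log2 fold change was 2.96 ± 0.75 (SE; adjusted p = 0.0188, edgeR). The call was lost without uninjured replicate 1 (adjusted p = 0.0611) or replicate 2 (0.0622). Of the myelin genes, Mbp, Mag, Cnp and Mobp were not called at day 7. Slc1a3, the most abundant astrocyte marker, had a log2 fold change of -0.27 (adjusted p = 0.311, edgeR), against the direction of the 4 that rose. Aqp4 and Aldh1l1, a folate enzyme used as a general astrocyte marker, had log2 fold changes of 1.5 (adjusted p = 0.0907) and 1.09 (adjusted p = 0.126, edgeR) and were not called.

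**Figure D4:**
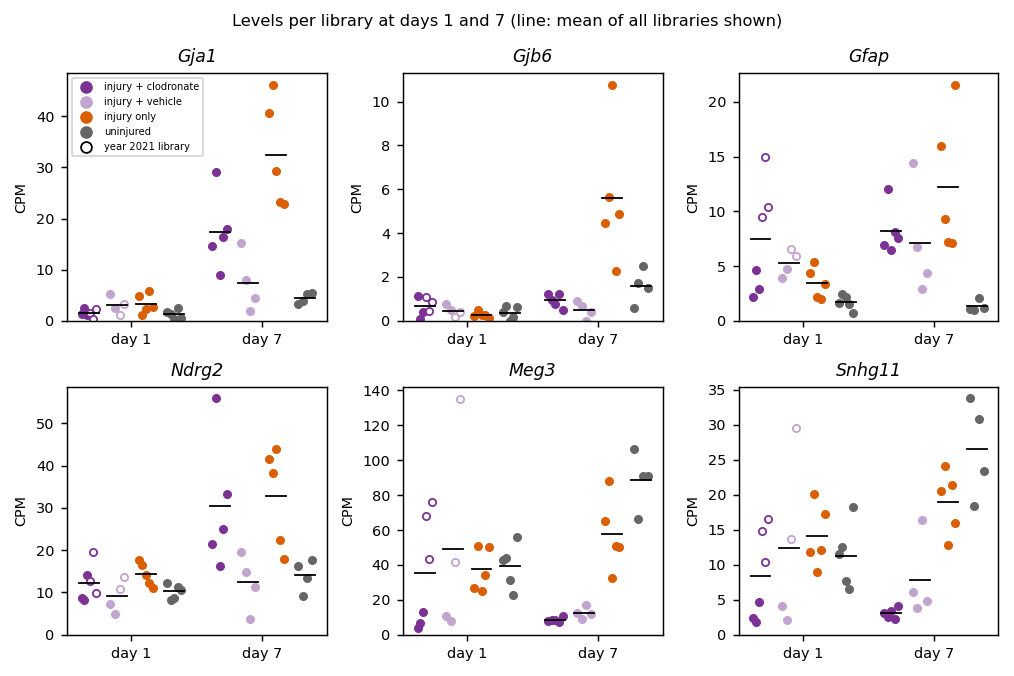
Level in CPM of Gja1, Gjb6, Gfap, Ndrg2, Meg3 and Snhg11 in each library of days 1 and 7 in the order clodronate, vehicle, injury only and uninjured; open circles are libraries of the later year and lines are means. At day 7 the injury-only points of Gja1 (22.8 to 46.1 CPM) lie above the uninjured (3.29 to 5.52 CPM) and the vehicle points (1.92 to 15.1 CPM), and Meg3 is low in both liposome groups.

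Genes outside the 31 that mark the same and other cell types were read beside the day 7 result. Of 14 other astrocyte genes tested, 2 rose, Atp1b2 (a sodium pump subunit, log2 fold change 1.63) and Clu (clusterin, a secreted chaperone, 1.86), and 0 fell. Of 9 other oligodendrocyte lineage genes 2 rose, the myelin protein Mal (1.37) and the precursor proteoglycan Cspg4 (2.57), which pericytes also carry. Some genes of other non-neural cells were higher in the same libraries. Of endothelial genes 10 of 12 rose, with summed levels of 602 to 917 CPM in injury only and 210 to 351 CPM in uninjured libraries. All 5 fibroblast genes rose (60.3 to 138 CPM, against 3.05 to 15.4 CPM), as did 4 of 9 choroid plexus and ependyma genes (374 to 1828 CPM, against 147 to 594 CPM). Of 7 mural cell genes 1 rose, but only 3 had a log2 fold change above 0 (median -0.27). Of 4 neutrophil genes 1 rose (median 6.23). Of the 10 microglia genes 4 fell, and of 6 border macrophage genes 3 fell. Their part in the rise of the astrocyte markers was not tested.

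At day 1 the changed members were mainly of the oligodendrocyte class, and they moved both ways. Of 5 oligodendrocyte markers tested, Mobp and Mbp rose while Cnp and Mag fell. Of 8 astrocyte markers Gfap rose and Slc1a3 fell, and of 13 neuron markers only Snap25 fell. The median log2 difference of the 26 tested members was -0.0077, where that of all tested genes was -0.0086, so the members lay about evenly on both sides.

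Mobp (chr9:120149707-120181484, plus strand), a structural protein of compact myelin, had 15.8, 24.9, 37.1, 13 and 14.7 CPM in the 5 injury-only libraries of day 1, against 9.12, 6.25, 7.28, 6.83 and 5.96 CPM in the 5 uninjured ones. All injury-only libraries were above all uninjured ones, and the log2 fold change was 1.53 ± 0.25 (SE; adjusted p = 5.2e-05, edgeR). Mbp had 65.1, 90.7, 117, 65.7 and 71.8 CPM in injury only, against 59.4, 45.4, 35.8, 48.2 and 44.8 CPM in uninjured libraries. These groups did not overlap either, at a log2 fold change of 0.77 ± 0.17 (SE; adjusted p = 0.000983, edgeR). Mog, Cldn11, Sox10, Olig2 and Pdgfra were too low at day 1 to be tested.

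Cnp (chr11:100574904-100591729, plus strand, overlapping Dnajc7 on the opposite strand) had 83.0, 90.8, 80.3, 71.2 and 85.1 CPM in injury only, against 121, 130, 122, 122 and 111 CPM in uninjured libraries. All injury-only libraries lay below all uninjured ones; the log2 fold change was -0.61 ± 0.12 (SE; adjusted p = 0.000322, edgeR). Mag (chr7:30899176-30914873, minus strand) had 36.5, 32.6, 31.9, 29.6 and 31.4 CPM in injury only, against 45.4, 40.0, 37.7, 40.8 and 39.9 CPM in uninjured libraries. The groups did not overlap, though they were close, and the log2 fold change was -0.38 ± 0.12 (SE; adjusted p = 0.0171, edgeR). Without uninjured replicate 1 the adjusted p of Mag was 0.0513, and with no filter on low counts it was 0.061.

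Slc1a3 (chr15:8634124-8710764, minus strand) had 112, 123, 91.9, 121 and 112 CPM in injury only, against 150, 165, 165, 179 and 174 CPM in uninjured libraries. The groups were well apart, and the log2 fold change was -0.61 ± 0.14 (SE; adjusted p = 0.00173, edgeR). The same libraries had lower microglia genes: 10 of 10 fell. Monocyte genes (4 of 5) and neutrophil genes (3 of 3) rose in them. Cnp, Mag and Slc1a3 fell with the microglia genes, and the part of those other cells was not tested.

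Gfap and Snap25 moved less clearly at day 1. Gfap had 4.40, 5.40, 2.21, 2.00 and 3.35 CPM in injury only, against 1.60, 2.47, 2.16, 1.53 and 0.701 CPM in uninjured libraries, with overlap (log2 fold change 0.98 ± 0.35 SE, adjusted p = 0.0342, edgeR). Snap25 (chr2:136713453-136782428, plus strand), a SNARE protein of synaptic vesicle release, had 7.54, 6.65, 6.55, 3.85 and 5.17 CPM in injury only, against 9.37, 6.25, 11.0, 6.75 and 14.3 CPM in uninjured libraries. These groups overlapped as well, and the log2 fold change was -0.72 ± 0.26 (SE; adjusted p = 0.0338, edgeR). Each call was lost in 5 of the 10 fits that left out 1 library. For Gfap these were without injury-only replicate 1 or 2 or uninjured replicate 1, 4 or 5 (highest adjusted p = 0.111), and for Snap25 without injury-only replicate 4 or 5 or uninjured replicate 1, 3 or 5 (highest adjusted p = 0.123). Gja1 had a log2 fold change of 1.30 at day 1 and was not called (adjusted p = 0.0645, edgeR).

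Other genes of the 3 cell types were also called in both directions at day 1, where 19.1% of all tested genes rose and 17% fell. Most genes of each of these 3 lists were not called. Among the 19 other neuron genes tested, Uchl1 (a deubiquitinase of neurons, log2 fold change 3.14) and Eno2 (neuronal enolase, 1.32) rose, and the vesicle protein Vamp2 (-0.52) fell. Of 14 other astrocyte genes 2 fell, Ttyh1 (-1.48) and the lipid phosphatase Plpp3 (-1.09). Of 6 other oligodendrocyte lineage genes 2 rose, Cspg4 (2.34) and Bcas1 (1.99), a marker of newly myelinating cells. Among 14 engulfment genes 2 rose, the scavenger receptors Cd36 and Stab1, and 5 fell, which were Mertk, Trem2 (log2 fold change -1.28), Tyrobp, Itgb5 and Elmo1. At day 7 only Axl, a receptor for bridged phosphatidylserine, rose among 15 engulfment genes (log2 fold change 2.26 ± 0.29 SE). Genes of the immediate early and heat shock response were lower at day 1 in 9 of 10 cases and at day 7 in 5 of 10.

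The difference between days was tested directly over days 1, 7 and 30, whose injury-only and uninjured libraries all carry the main year. The effect of injury differed by day for 4 of 28 members tested, where 23.8% of all 14583 genes did (21% between days 7 and 1 and 1.07% between days 30 and 7). Gfap had an adjusted p of 0.00388 in edgeR's interaction test; its injury effect was larger at day 7 than at day 1 by 2.15 ± 0.65 on the log2 scale (SE; adjusted p = 0.0181) and smaller at day 30 than at day 7 (-3.05 ± 0.70, adjusted p = 0.0244). Gja1 had an adjusted p of 0.00489, with a smaller effect at day 30 than at day 7 (-3.58 ± 0.81, adjusted p = 0.0220); the difference between days 7 and 1 was 1.5 (adjusted p = 0.181). Mobp (adjusted p = 0.000722) had a smaller effect at day 7 than at day 1 (-1.27 ± 0.39, adjusted p = 0.0193). Cnp (adjusted p = 0.000393) had an effect at day 7 that was higher than at day 1 by 0.57 ± 0.12 (adjusted p = 0.000594). Mag (0.0503) and Mbp (0.0522) missed the threshold.

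At day 30 the libraries of both groups overlapped for the astrocyte genes that had risen at day 7. Gja1 had 1.54, 2.64, 1.70 and 0.317 CPM in injury only, against 4.40, 4.80, 0 and 1.11 CPM in uninjured libraries. Gfap had 2.59, 2.51, 1.31 and 1.03 CPM in injury only, against 4.25, 0.727, 0.818 and 0.925 CPM in uninjured libraries. The highest library of each gene was an uninjured one, and the groups overlapped. Meg3 at day 30 had 179, 142, 40.6 and 110 CPM in injury only, against 99.7, 49.7, 56.8 and 101 CPM in uninjured libraries, also overlapping.

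At day 14, with 3 libraries in each group, no member was called. All 13 neuron markers had a log2 fold change below 0 in injury only, with a median of -1.66 (all tested genes 0.0043), and 7 of 13 had every injury-only library below every uninjured one, where 4.26% of all tested genes did and 6.74% did in the opposite direction. Meg3 had 33.0, 2.80 and 10.9 CPM in injury only, against 51.7, 97.0 and 89.2 CPM in uninjured libraries (log2 fold change -2.36, adjusted p = 0.323, edgeR). Unc80, a subunit of the sodium leak channel complex, had 0.288, 0.0667 and 0.569 CPM in injury only, against 1.78, 11.0 and 6.68 CPM (log2 fold change -4.38, adjusted p = 0.316, edgeR). Olfm1 had 6.2, 6.27 and 8.53 CPM in injury only, against 13.7, 21 and 79.2 CPM in uninjured libraries (log2 fold change -2.44, adjusted p = 0.316, edgeR). The third uninjured library is the one low in microglia genes. With it 0 members were called, and without it 0. Without uninjured replicate 1, 4 members were called, in a fit that keeps the library low in microglia genes. Over the fits without 1 library, 0 to 1835 of all tested genes were called. The summed neuron markers were 73.5, 27.7 and 48.4 CPM in injury only, against 122.5, 288.5 and 222.9 CPM in uninjured libraries.

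Some other lists also lay lower in injury only at day 14 and some lay higher, with 0 genes called in any. All 10 microglia genes (median 0.63) and all 9 choroid plexus and ependyma genes (median 0.86) had log2 fold changes above 0. So did 5 of 6 border macrophage genes and 4 of 5 fibroblast genes. All 18 other neuron genes tested had log2 fold changes below 0 (median -1.46), as did the 6 monocyte genes (median -7.80) and the 6 neutrophil genes (median -7.13), all 12 of them with an unadjusted p under 0.05. The sums of monocytes were 24.2, 18.8 and 30.7 CPM in injury only, against 18.1, 20.8 and 5085 CPM in uninjured libraries, and those of neutrophils 10.9, 9.81 and 21.2 CPM, against 12.7, 6.28 and 8303 CPM. The high values were those of uninjured replicate 3 alone. For erythroid cells, 5 of 5 genes had every injury-only library below every uninjured one (median -2.12), with sums of 6.63, 11.8 and 25.7 CPM in injury only, against 60.1, 35.4 and 90.6 CPM in uninjured libraries. Their part in the neuron values was not tested.

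Vehicle liposomes were set against injury only to show what the liposomes do apart from clodronate, at the 4 days where both groups share a library year. At day 1, 0 of 26 tested members rose and 2 fell, where 0.228% of all genes rose and 0.714% fell. At day 7, 0 of 29 rose and 4 fell, where 0.196% of all genes rose and 0.14% fell. At days 30 and 60, 0 of 25 and 0 of 28 were called, where 0% and 0.00831% (lower) of all genes were. At those days, 8 and 4 members had an unadjusted p under 0.05 and DESeq2 called 1 and 1. Among all tested genes, 1212 of 14082 and 695 of 12033 had such a p, and DESeq2 called 35 and 25. The injury-only libraries of days 1 and 7 also entered the comparisons with uninjured above, so the comparisons share samples.

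The genes that fell were Meg3 and Snhg11 at both days and the connexins Gjb6 and Gja1 at day 7. Meg3 (chr12:109541001-109571726, plus strand, with an antisense gene in the same region) is an imprinted noncoding RNA expressed from the maternal chromosome that is abundant in neurons. Snhg11 (chr2:158375638-158386145, plus strand) is a host gene of small nucleolar RNA with high expression in neurons, annotated as protein coding in GENCODE M21. Their promoters are shown because both RNAs were lower in the same comparisons, as windows of the same size and build at chr12:109540746-109541045 and chr2:158375463-158375762, both on the plus strand. Capitals mark in Meg3 a pair of overlapping TATA boxes (TATAAA, read on both strands), present in 13.6% of all promoters; in Snhg11 none of the motifs was found.
Meg3: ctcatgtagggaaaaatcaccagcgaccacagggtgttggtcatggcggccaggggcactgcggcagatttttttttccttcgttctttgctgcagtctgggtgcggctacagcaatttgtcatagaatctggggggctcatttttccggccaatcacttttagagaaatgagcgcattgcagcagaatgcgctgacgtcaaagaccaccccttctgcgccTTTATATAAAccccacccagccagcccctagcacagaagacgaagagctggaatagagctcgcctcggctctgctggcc
Snhg11: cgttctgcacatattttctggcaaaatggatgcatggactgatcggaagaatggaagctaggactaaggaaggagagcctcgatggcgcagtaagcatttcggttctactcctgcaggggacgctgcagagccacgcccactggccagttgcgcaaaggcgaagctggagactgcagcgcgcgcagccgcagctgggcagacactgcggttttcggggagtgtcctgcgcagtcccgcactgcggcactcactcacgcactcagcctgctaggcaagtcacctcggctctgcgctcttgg
A GC box (GGGCGG) was also searched; 35.7% of all promoters and 14 of the 30 member windows held one.

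At day 7 Meg3 had 12.4, 8.77, 17.3 and 11.7 CPM in vehicle, against 65.4, 88.0, 32.8, 50.6 and 50.5 CPM in injury only. No vehicle library reached the lowest injury-only one, and the log2 fold change was -2.29 ± 0.26 (SE; adjusted p = 0.000297, edgeR). Clodronate libraries had 7.74, 8.26, 8.42, 7.51 and 10.7 CPM and uninjured ones 106, 66.6, 90.8 and 90.9 CPM, so both liposome groups were low, and the uninjured libraries overlapped with injury only. Snhg11 at day 7 had 6.17, 3.79, 16.3 and 4.79 CPM in vehicle, against 20.5, 24.1, 12.8, 21.3 and 15.9 CPM in injury only. Vehicle replicate 4, at 16.3 CPM, lay within the injury-only range, and the log2 fold change was -1.62 ± 0.34 (SE; adjusted p = 0.0341, edgeR). Without that library it was -1.96 (adjusted p = 0.0012), and without vehicle replicate 5 it was -1.49 (adjusted p = 0.134). The call was also lost without vehicle replicate 2 or 3 or injury-only replicate 1, 2 or 4, and thinned to the depth of the shallowest library it was -1.04 (adjusted p = 0.303).

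Gjb6 at day 7 had 0.882, 0.669, 0 and 0.386 CPM in vehicle, against 4.48, 5.64, 10.8, 2.27 and 4.88 CPM in injury only. The groups did not overlap, and the log2 fold change was -3.16 ± 0.54 (SE; adjusted p = 0.0109, edgeR). Gja1 had 15.1, 7.95, 1.92 and 4.56 CPM in vehicle, against 40.5, 46.1, 29.2, 23.1 and 22.8 CPM in injury only. These did not overlap, at a log2 fold change of -1.94 ± 0.37 (SE; adjusted p = 0.0254, edgeR); the 1.92 CPM of vehicle replicate 4 rest on 2 counts. Without that library the log2 fold change of Gja1 was -1.82 (adjusted p = 0.0385) and that of Gjb6 was -3.10 (adjusted p = 0.0153). Without vehicle replicate 5 neither connexin was called (adjusted p = 0.101 for Gja1 and 0.0688 for Gjb6). Gja1 lost its call in 4 of the 9 fits that left out 1 library, and the number of members called fell to 1 without vehicle replicate 5 and to 2 without vehicle replicate 3 or injury-only replicate 1 or 2. Those 9 fits called 15 to 91 of all tested genes. With only the vehicle and injury-only libraries in the fit, Meg3 alone was called; the adjusted p was 0.0501 for Gjb6, 0.0843 for Gja1 and 0.18 for Snhg11.

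Gfap and Ndrg2 were not called in vehicle against injury only at day 7. Gfap had 14.4, 6.77, 2.88 and 4.40 CPM in vehicle, which overlapped with the 7.09 to 21.6 CPM of injury only. Of the 29 tested members 1 had a log2 fold change above 0, and the median was -0.65 (all tested genes -0.0039). The summed neuron markers had a median of 37.4 CPM in vehicle, against 110 CPM in injury only. Without Meg3 and Snhg11 the medians were 19.9 CPM in vehicle and 37.8 CPM in injury only, with 17.7 CPM in clodronate and 33.1 CPM in uninjured libraries. The astrocyte markers without Slc1a3 summed to a median of 32 CPM in vehicle, against 101 CPM in injury only.

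At day 1 the vehicle libraries of the later and the main year differed. Meg3 had 41.6 and 135 CPM in vehicle libraries of the later year and 10.6 and 8.16 CPM in those of the main year, against 26.9, 50.9, 24.9, 34.4 and 50.4 CPM in injury only, all of the main year. Within the main year vehicle was below injury only, whereas vehicle libraries of the later year were not. With the year as a term, the log2 fold change was -1.86 ± 0.39 (SE; adjusted p = 0.0226, edgeR), and with libraries of the main year only, a comparison added after the data were seen, it was -1.98 (adjusted p = 0.0231). In a fit of only the vehicle and injury-only libraries it was -1.97 and not called (adjusted p = 0.155). Snhg11 had 13.6 and 29.6 CPM in vehicle libraries of the later year and 4.18 and 2.08 CPM in those of the main year, against 11.8, 20.2, 9.02, 12.1 and 17.3 CPM in injury only. Its log2 fold change was -1.91 ± 0.39 with the year as a term (SE; adjusted p = 0.0204, edgeR) and -2.13 in libraries of the main year (adjusted p = 0.0277), and in the fit of only those 2 groups its call was lost as well (adjusted p = 0.105). The count of called members was 1 without vehicle replicate 1 of the main year, 0 without replicate 2 of the main year and 4 without replicate 4 of the later year. Fits without 1 library called 25 to 183 of all tested genes. Meg3 also lost its call without injury-only replicate 2 (adjusted p = 0.057).

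Some members differed between the years in liposome libraries of day 1. In clodronate libraries Meg3 had 68.1, 43.3 and 76.1 CPM in the later year and 4.14, 6.61 and 12.9 CPM in the main year. Gfap had 9.52, 15.0 and 10.4 CPM in the later year and 2.17, 4.61 and 2.92 CPM in the main year. Slc1a3 differed the other way in clodronate libraries, with 73.9, 48.4 and 95.2 CPM in the later year and 130, 148 and 202 CPM in the main year. None of these 3 genes overlapped between the years. In vehicle libraries Slc1a3 had 66.7 and 65.0 CPM in the later year and 123 and 142 CPM in the main year. The neuron markers summed to a median of 125 CPM in clodronate and 170 CPM in vehicle libraries of the later year, and to 19.0 and 28.7 CPM in those of the main year.

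At day 30 Camk2a, a kinase of excitatory synapses, had 1.41, 0.903, 1.53 and 1.52 CPM in vehicle, against 4.37, 3.67, 3.25 and 3.17 CPM in injury only. The groups did not overlap but the gene was not called (log2 fold change -1.41, adjusted p = 0.362, edgeR). Meg3 at day 30 had 36.0, 85.3, 46.2 and 33.8 CPM in vehicle, against 179, 142, 40.6 and 110 CPM in injury only, with overlap and no call (-1.21, adjusted p = 0.476, edgeR). At day 60 Mbp had 154, 150, 204 and 88.1 CPM in vehicle, against 240, 585 and 628 CPM in injury only. Every vehicle library was below every injury-only one, but the gene was not called (-1.65 ± 0.35 SE, adjusted p = 0.166, edgeR). Mobp at day 60 had 27.7, 44.3, 40.8 and 13.7 CPM in vehicle, against 47.3, 159 and 118 CPM in injury only (-1.73, adjusted p = 0.302, edgeR). Depth differed between the same groups. The vehicle libraries of day 60 held 1109856 to 5271285 counts in genes, against 8431455 to 12306417 in injury only.

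Markers of other cells and library quality differed beside these vehicle results. At day 1, 2 of 12 endothelial genes and 1 of 6 mural cell genes fell in vehicle against injury only. At day 7, 0 genes of the other lists were called. Of 9 choroid plexus and ependyma genes, all had log2 fold changes below 0 (median -1.48), 8 with an unadjusted p under 0.05. All 4 neutrophil genes tested were above 0 (median 2.61, 3 with an unadjusted p under 0.05), and of 12 endothelial genes 10 were above 0 (median 0.14). All 14 other astrocyte genes and 17 of the 18 other neuron genes had log2 fold changes below 0, with medians of -1.05 and -0.87. The other neuronal noncoding RNAs, among them Rian of the same imprinted region as Meg3, summed to 1.78 to 11.5 CPM in vehicle and 4.84 to 9.86 CPM in injury only. All 3 of them tested had log2 fold changes below 0 (median -1.48, 2 with an unadjusted p under 0.05). The same held at day 1 (median -1.45, 2 with an unadjusted p under 0.05, 0 called). The share of reads in no feature had a median of 4.91% in vehicle and 5.71% in injury only at day 7, and 9.34% and 8.21% at day 30. At day 30 all 12 endothelial genes were above 0 in vehicle against injury only (median 1.73, 10 with an unadjusted p under 0.05, 0 called). At day 60 all 4 erythroid genes tested were below 0 (median -10.1, 4 with an unadjusted p under 0.05), also with 0 called. Their part in the lower neuron and astrocyte markers was not tested.

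Clodronate was set against vehicle to show the effect of clodronate apart from that of the liposomes, and no member was called on any of the 5 days. The shares of all genes called were 0.162% higher and 0.0368% lower at day 1, 0.455% and 0.119% at day 7, and 0% at days 14, 30 and 60. Unadjusted p was under 0.05 for 2, 7, 4, 2 and 1 members at days 1, 7, 14, 30 and 60, and DESeq2 called 0, 1, 1, 0 and 0. Tested members numbered 26, 29, 27, 25 and 28. Among all tested genes, 1162 of 13593, 1877 of 14278, 785 of 14354, 1199 of 14082 and 789 of 12033 had such a p. DESeq2 called 113, 401, 19, 35 and 12 genes in all. The effect of clodronate did not differ by day for any member in the interaction test over days 7, 14 and 30, in which 0% of all 14810 genes were called and the lowest adjusted p of a member was 0.195. These tests do not show that the groups are alike.

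At day 7, 7 of the 29 tested members had an unadjusted p under 0.05, where 1877 of all 14278 tested genes did. Gja1 had 14.7, 29.0, 9.01, 16.4 and 17.9 CPM in clodronate, against 15.1, 7.95, 1.92 and 4.56 CPM in vehicle. The groups overlapped (log2 fold change 1.02, adjusted p = 0.225, edgeR). Ndrg2 had 21.5, 56.0, 16.2, 25.1 and 33.4 CPM in clodronate, against 19.7, 14.9, 3.84 and 11.2 CPM in vehicle (1.12, adjusted p = 0.175, edgeR). Unc80 differed the other way (-2.17, adjusted p = 0.141), as did Snhg11 with 3.06, 2.56, 3.46, 2.29 and 4.05 CPM in clodronate, against 6.17, 3.79, 16.3 and 4.79 CPM in vehicle (-1.02, adjusted p = 0.191, edgeR). In the same libraries 4 of 12 endothelial and 2 of 7 mural cell genes rose, with endothelial sums of 1464 to 3151 CPM in clodronate, against 394 to 1195 CPM in vehicle. Of the other oligodendrocyte lineage genes 1 of 9, Mal, rose (log2 fold change 1.43). The part of those cells was not tested.

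At day 14 Ndrg2 had 10.6, 6.46, 9.08, 8.44 and 5.60 CPM in clodronate, against 10.7, 17.3, 14.8, 21.9 and 25.8 CPM in vehicle. All clodronate libraries were below all vehicle ones, though the highest of clodronate nearly met the lowest of vehicle, and the log2 fold change was -1.18 ± 0.27 (SE; adjusted p = 0.827, edgeR). The direction was opposite to that at day 7, and the interaction of Ndrg2 with day was not called (adjusted p = 0.195). Other markers were lower in clodronate at day 14 too, with 0 called. All 12 endothelial genes (median -1.54, 7 with an unadjusted p under 0.05) and all 9 choroid plexus and ependyma genes (median -2.55, 9 with an unadjusted p under 0.05) had log2 fold changes below 0. Their part in the Ndrg2 values was not tested. At day 30 Mag had 41.2, 48.8, 44.7 and 50.2 CPM in clodronate, against 32.1, 34.4, 43.9 and 33.1 CPM in vehicle (log2 fold change 0.35 ± 0.10 SE, adjusted p = 0.402, edgeR); 1 vehicle library overlapped. At day 60 Mobp had 8.73, 18.5, 15.8 and 19.3 CPM in clodronate, against 27.7, 44.3, 40.8 and 13.7 CPM in vehicle, overlapping through 1 vehicle library (-1.07, adjusted p = 0.724, edgeR).

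**Figure D5:**
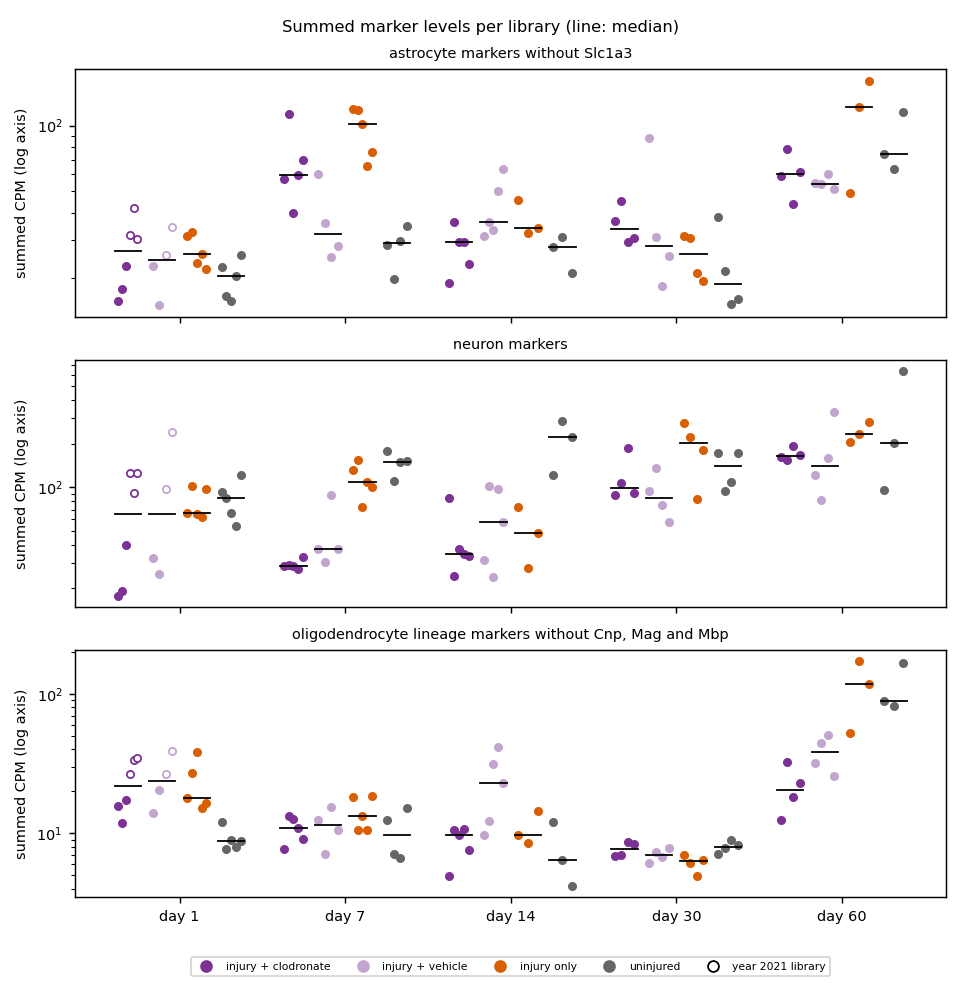
Summed CPM, on a log axis, of the astrocyte markers without Slc1a3, of the neuron markers and of the oligodendrocyte markers without Cnp, Mag and Mbp, in each library by day and treatment, with lines at group medians. At day 7 the astrocyte sum is highest in injury only (median 101 CPM, against 29.1 CPM in uninjured), and the neuron sum is lowest in clodronate and vehicle (28.5 and 37.4 CPM, against 110 CPM in injury only and 151 CPM in uninjured).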

How the data were processed

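RNA of sorted microglia was isolated with PicoPure, amplified by 11 PCR cycles and made into libraries with Nextera XT, per the labels' protocols. Per the submitters' processing notes, STAR (no version given) was the aligner and mm10, or GRCm38, the build; no source used here gives strand settings, so overlapping and antisense genes (Cnp and Dnajc7, Meg3, Gad1, Nefl) may share reads. The authors deposited raw counts per gene, made with HTSeq per the file headers, and a run summary of percent values, of which that in no feature is used here; 1 of its lines belongs to none of the 84 libraries and was set aside. The 5 summary lines of each count file (2.59% to 22.44% of counted reads in no feature) were left out. Reads carry no molecular identifiers in the labels, so copies made by PCR are counted.

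Gene names, exon lengths and coordinates came from GENCODE M21 (49412 of 49671 IDs matched) and promoters from RefSeq (23 of 31 members). CPM used TMM scaling over all libraries. Each day was fitted with edgeR 4.0.16 (R 4.3.3; filterByExpr, minimum count 10 and minimum total 15; glmQLFit and glmQLFTest; Benjamini-Hochberg over all genes tested), all treatments of a day together, with library year as a term at day 1. DESeq2 1.42.0, other scaling, no filter, a replicate block, thinning and leaving out libraries were alternatives, and the procedure was tested on simulated data. No pair of libraries agreed within sampling noise (lowest chi-square per degree of freedom 6.15). Same-numbered libraries deviated together only at day 30, between vehicle and injury only (4 pairs, r = 0.12 to 0.25), where the blocked fit left the count of called members at 0. The 31 members, the other lists and the tests were chosen with earlier results of these data known. All members could be named; of other lists, up to 4 called genes each. A result of the other neuron genes is not reported here. Figures were drawn with matplotlib 3.10.9.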

Additional observations from a re-analysis of the deposited data

Results flagged for a closer look

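Among 74 values examined for a library far from the rest of its group, 4 were flagged, where chance gives about 5%. Groups of fewer than 4 libraries, among them the uninjured libraries of day 14, were not examined. In vehicle at day 7, replicate 4 had the lowest summed astrocyte markers (141 CPM, against 189.7 to 194.7 CPM in the others) and the highest summed neuron markers (88.4 CPM, against 30.5 to 37.7 CPM); it is the library with 22.4% of reads in no feature and 1134078 counts. In injury only at day 30, replicate 4 had the highest summed astrocyte markers (196.7 CPM, against 175 to 178 CPM). In clodronate at day 14, replicate 1 had the highest summed neuron markers (84.4 CPM, against 24.2 to 37.4 CPM).

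The effect of injury differed between days 1, 7 and 30 in edgeR's interaction test for Gja1 (adjusted p = 0.00489), Gfap (0.00388), Mobp (0.000722) and Cnp (0.000393). Gja1 and Gfap stood highest against uninjured at day 7, Mobp was higher and Cnp lower at day 1. No cause was tested.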

How the results depend on the processing

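Numbers of called members moved by more than 1.5 times under the following settings, and no value reversed. Injury only against uninjured gave 7 at day 1 (4 to 7 over fits without 1 library, fewest without uninjured replicate 1), 5 at day 7 (2 to 6; 3 without injury-only replicate 3, 2 without uninjured replicate 1 or 2; 2 after thinning to the shallowest library) and 0 at day 14 (0 to 4; DESeq2 2). Vehicle against injury only gave 2 at day 1 (0 to 4; 5 with no filter, 5 with DESeq2, 0 with only the 2 groups), 4 at day 7 (1 to 4; 1 with only the 2 groups, 2 after thinning), 0 at day 30 (DESeq2 1) and 0 at day 60 (0 to 2, most without injury-only replicate 2; 3 with no filter, DESeq2 1). Clodronate against vehicle gave 0 at day 7 (0 to 1, 1 without vehicle replicate 2; 1 with no filter, DESeq2 1), 0 at day 14 (DESeq2 1) and 0 at day 60 (1 with no filter). The injury effect by day gave 4 (4 to 7, most without injury-only replicate 1 of day 7), and the clodronate effect by day gave 0 (0 to 1, 1 without vehicle replicate 1 of day 14 or of day 30; DESeq2's likelihood ratio test 1). Calls among all genes moved too over the fits without 1 library. Injury only against uninjured gave 4411 to 4730 at day 1, 592 to 1068 at day 7 and 0 to 1835 at day 14. Vehicle against injury only gave 25 to 183, 15 to 91, 0 to 8 and 0 to 9 at days 1, 7, 30 and 60. Clodronate against vehicle gave 12 to 355 at day 7 and 0 to 1 at day 60. The injury and clodronate effects by day gave 3056 to 3587 and 0 to 99. DESeq2 called 408 genes in vehicle against injury only at day 1. The causes were not tested. Of named genes, 218 values kept their side of the threshold and 49 lost the call in the same direction; Mobp, Mbp, Cnp and Slc1a3 at day 1, Gja1 and Gfap in injury only at day 7, and Meg3 in vehicle at day 7 kept it in all fits without 1 library. A block on replicate number, shared by number alone, ended 3 calls: Snap25 at day 1 (adjusted p = 0.0781), Ndrg2 in injury only at day 7 (0.0575) and Snhg11 in vehicle at day 7 (0.0697). Sox10 and Olig2 were too low to be tested at any day.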
